A study of Homo sapiens with 4 samples.

Results

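QKI and 9 other regulators of alternative splicing were examined with and without knockdown of STAU1 in SAS, an established line of human tongue squamous carcinoma. The 10 genes are QKI, ESRP1, ESRP2, MBNL1, MBNL2, MBNL3, RBFOX2, KHSRP, HNRNPM and HNRNPL, out of 67008 genes in the deposited table. They were chosen by name, as splicing regulators of which several take part in the formation of circular RNA, and by a choice made with the fall of QKI in these libraries already known. Their own changes are therefore given as a description, and the adjusted p-values beside them only say where each gene stood among all genes. Control cells (Ctrl) carried an shRNA against luciferase and knockdown cells (shSTAU1) an shRNA against STAU1, both delivered by viral infection, with 2 libraries in each group. The labels give 1 shRNA a group and a wild-type genotype for all 4 libraries, and no rescue. They do not say whether the libraries came from separate cultures, so the p-values measure only the spread between these libraries. The labels also name the mouse line C3H 10T1/2, while their organism, growth protocol and design text give human SAS cells.

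Alternative splicing differs between epithelial and mesenchymal cells, and a small set of RNA-binding proteins sets much of that difference. ESRP1 and ESRP2 are epithelial proteins that keep epithelial exons in or out of the mRNA, whereas QKI and RBFOX2 favor many of the mesenchymal choices. MBNL proteins, best known from muscle, and the hnRNP proteins act on many of the same transcripts. QKI can also bind the introns that flank an exon and promote its back-splicing into a circular RNA. STAU1 binds double-stranded RNA and acts on the transport, translation and decay of mRNAs. The counts are sums over each gene, so exon inclusion, the isoforms of QKI and back-splice junctions were not analysed here.

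QKI binds RNA through a core ACUAAC or ACUAAU, usually with a shorter partner UAAC or UAAU nearby. This pair of sequences was searched on the sense strand of 3′ untranslated regions, with 1 to 20 bases between core and partner, because its presence shows which of these mRNAs hold the letters that QKI recognizes. The QKI mRNA itself holds 2 such pairs in a 3′ untranslated region of 7886 bases (transcript ENST00000361752.7), and MBNL3 holds 3 in 10349 bases (ENST00000538204.5). The other 8 regulators hold none in the transcript examined, and ESRP1, MBNL1 and MBNL2 hold a core without a partner. OSBPL3, a gene with a regulated exon described later, holds 1. The windows are given 5′ to 3′ as DNA letters from the GENCODE 29 transcripts (GRCh38), with the core and the partner in capitals. The QKI windows lie on the plus strand at chr6:163573778-163573807 and chr6:163577942-163577971. Those of MBNL3 lie on the minus strand at chrX:132375522-132375551, chrX:132375435-132375463 and chrX:132372320-132372349. That of OSBPL3 lies on the minus strand at chr7:24797297-24797326.
QKI, upstream window: atgttaTAATaccaacctACTAACtctgga
QKI, downstream window: agttaaACTAATtgaccatcTAATagttgt
MBNL3, upstream window: ctgtaaataTAACtcACTAATtggtaccat
MBNL3, middle window: ctaagtaACTAATcaattTAATttcaaag
MBNL3, downstream window: aggACTAACtttgtgcattcataTAACaac
OSBPL3, window: atacaaACTAATatatttttTAATgtttac

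Such pairs are common in long 3′ untranslated regions. Of 11894 genes compared, 18.4% hold at least 1 pair, but the share is 48.7% among the 1617 genes whose 3′ untranslated region is within 2-fold of the length of that of QKI, and 337 of these hold as many pairs as QKI or more. For MBNL3 the share is 56.3% of 886 genes of similar length, and for OSBPL3 31.7% of 4377. A match of letters is a description of the sequence and does not show binding.

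The depth of the libraries was similar, with 33009118 and 32206655 counts in Ctrl and 35180221 and 36301574 in shSTAU1. Values are given as CPM, the usual scale of counts relative to library size, here after TMM scaling in edgeR. STAU1 was reduced by its shRNA. The gene (ENSG00000124214, minus strand, chr20:49113339-49188367) had 249 and 251 CPM in the Ctrl libraries and 41.6 and 41.5 CPM in the shSTAU1 libraries, which is 16.6% of the control level. Its log2 fold change was -2.59 (SE 0.13, adjusted p = 0.00103 by edgeR's quasi-likelihood test, Benjamini-Hochberg adjusted), and it ranked first by p among all genes tested. Its paralog STAU2 had 14.6 and 15.5 CPM in Ctrl and 14.0 and 16.3 CPM in shSTAU1, and these groups overlap. Of the 14303 genes tested, 372 (2.6%) were past the threshold of 0.05 on the adjusted p. The shSTAU1 group was the higher in 161 of them (1.13%) and the lower in 211 (1.48%). This balance moved with the processing, to 132 higher and 272 lower with scaling by library size alone, 773 and 676 with DESeq2, which has its own scaling, dispersions and test, and 187 and 160 once trends with transcript length and GC content were removed. Other rules passed more genes. An unadjusted p under 0.05 held for 3509 genes (24.5%), DESeq2 called 1449 (10.1%), and the edgeR test called 2780 of 15015 (18.5%) without shSTAU1 replicate 1 and 2203 of 15146 (14.5%) without shSTAU1 replicate 2. In 8089 genes (56.6%) the groups did not overlap, so with 2 libraries a group a separation of the groups is common.

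Of the 10 regulators, 9 were tested. QKI was the only gene among them past the threshold, and it was lower after STAU1 knockdown. The 9 tested regulators split into 5 with a higher and 4 with a lower value, with a median log2 fold change of 0.12 beside 0.01 over all genes tested. The groups did not overlap in 7 of the 9, with shSTAU1 higher in 4 and lower in 3. Because the genes were chosen with these changes known, nothing is read from these counts against the shares of all genes.

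**Figure D1:**
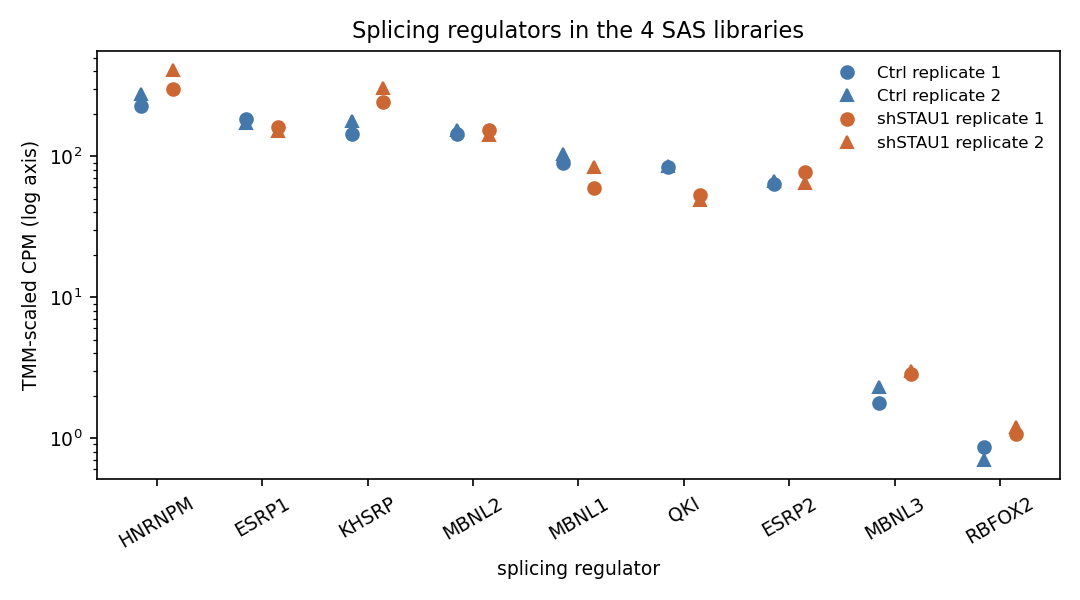
TMM-scaled CPM (log axis) of the 9 splicing regulators with counts, in order of their mean in Ctrl, in the 2 Ctrl and 2 shSTAU1 libraries. Each point is 1 library; QKI sits at 84.4 and 85.4 CPM in Ctrl and at 53.5 and 48.8 CPM in shSTAU1, while MBNL3 and RBFOX2 lie near 1 to 3 CPM in all 4.

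QKI (ENSG00000112531), a KH-domain protein of the STAR family, lies on the plus strand at chr6:163414000-163578596 (GRCh38, as for all positions here). It was counted 2837 and 2796 times in the Ctrl libraries and 1861 and 1726 times in the shSTAU1 libraries. On the CPM scale this was 84.4 and 85.4 in Ctrl and 53.5 and 48.8 in shSTAU1. The Ctrl libraries lay close together, and both shSTAU1 libraries lay well under them. The mean fell from 84.9 ± 0.73 CPM to 51.1 ± 3.26 CPM (SD, n = 2 each), to 60.3% of the control level. The log2 fold change was -0.73 (SE 0.13, 95% interval -1.04 to -0.42, adjusted p = 0.0378 by edgeR's quasi-likelihood test), and its rank by p among all genes was 265. The gene shares no exonic base with another gene on either strand in GENCODE 29. The direction was the same under each alternative run, but the call was lost in the fit corrected for length and GC content (log2 fold change -0.59, adjusted p = 0.0602). It was also lost with no filter on low counts (adjusted p = 0.0991) and when either Ctrl library was left out.

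The genes whose profile over the 4 libraries was most like that of QKI were sought among 7755 tested genes that averaged at least 10 CPM, by the distance between log2 profiles centred on their mean. Of the 5 nearest, 4 are given. The gene left out came next after the nearest and is not a zinc finger gene. RBAK, a zinc finger protein gene, was nearest, with 79.7 and 80.4 CPM in Ctrl and 49.7 and 46.4 CPM in shSTAU1. ZNF431 (292 and 282 CPM in Ctrl, 183 and 165 CPM in shSTAU1) and ZNF141 (179 and 173 CPM, 112 and 102 CPM) are zinc finger genes as well. NBPF26 (526 and 512 CPM, 335 and 299 CPM) belongs to a family of near-identical copies, between which reads may be split, so its values are uncertain. The log2 fold changes of these 4 genes lay between -0.74 and -0.71, and the likeness rests on 4 libraries of 2 groups.

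The epithelial regulators were not past the threshold. ESRP1 had 184 and 171 CPM in Ctrl and 162 and 150 CPM in shSTAU1, and its log2 fold change was -0.18 (SE 0.13, 95% interval -0.48 to 0.11). ESRP2 (ENSG00000103067, minus strand, chr16:68229111-68238102) had 63.4 and 66.2 CPM in Ctrl and 76.7 and 64.4 CPM in shSTAU1, with a log2 fold change of 0.12 (SE 0.14, 95% interval -0.21 to 0.46). The shSTAU1 libraries of ESRP1 both lay under the Ctrl libraries by a small step, and the groups of ESRP2 overlapped. The adjusted p was 0.394 for ESRP1 and 0.641 for ESRP2 in the edgeR test. Per kb of exons, ESRP2 made up 23.2% and 25.4% of the summed ESRP1 and ESRP2 level in the Ctrl libraries and 29.4% and 27.3% in the shSTAU1 libraries. ESRP1 was the larger part of the pair in every library. ESRP2 shares 4.0% of its exonic bases with other genes, NFATC3 on the opposite strand among them, and NFATC3 had 1223 and 1556 counts in Ctrl and 1422 and 1882 in shSTAU1.

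The 3 MBNL genes, which encode zinc finger splicing proteins, differed from each other in level. MBNL1 (ENSG00000152601, plus strand, chr3:152243828-152465780) had 90.0 and 104 CPM in Ctrl and 59.5 and 83.5 CPM in shSTAU1. The shSTAU1 libraries both lay under the Ctrl libraries, but they differed from each other by 0.49 on the log2 scale, against 0.21 between the Ctrl libraries. The log2 fold change was -0.44 (SE 0.19, 95% interval -0.87 to -0.01, adjusted p = 0.196 by the edgeR test). Without shSTAU1 replicate 1 it was -0.21 (adjusted p = 0.425) and without shSTAU1 replicate 2 it was -0.72 (adjusted p = 0.000657, both by the edgeR test). MBNL1 shares 15.6% of its exonic bases with genes on the opposite strand, of which MBNL1-AS1 had at most 5 counts in any library.

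MBNL2 (ENSG00000139793, plus strand, chr13:97221434-97394120) had 145 and 153 CPM in Ctrl and 154 and 141 CPM in shSTAU1, and the groups overlapped. Its log2 fold change of -0.01 (SE 0.13, 95% interval -0.31 to 0.28) changed sign after the length and GC correction, to 0.06. MBNL3 (ENSG00000076770, minus strand, chrX:132369317-132489968) was far lower, with 60 and 75 counts in Ctrl and 99 and 106 counts in shSTAU1, or 1.78 and 2.29 CPM against 2.84 and 3.0 CPM. Its log2 fold change was 0.52 (SE 0.33, 95% interval -0.25 to 1.29, adjusted p = 0.368 by the edgeR test). Both shSTAU1 libraries lay above both Ctrl libraries, yet the interval includes 0. Per kb of exons, MBNL2 made up most of the summed MBNL level in each library, from 74.7% to 83.5%, or from 59.1% to 71.2% per kb of coding exons. The share of MBNL1 was 23.3% and 24.9% in Ctrl and 15.9% and 22.4% in shSTAU1. Per kb of coding exons it was 37.9% and 39.9% in Ctrl and 27.4% and 36.6% in shSTAU1, so the shSTAU1 libraries lay under the Ctrl libraries on both scales.

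RBFOX2 (ENSG00000100320, minus strand, chr22:35738736-36028425), which binds GCAUG next to many muscle, neural and mesenchymal exons, was close to the limit of the counts. It had 29 and 23 counts in Ctrl and 37 and 42 counts in shSTAU1, or 0.862 and 0.702 CPM against 1.06 and 1.19 CPM. The groups did not overlap, but the interval of the log2 fold change ran from -0.55 to 1.6 around 0.52 (SE 0.46), so neither a fall nor a rise can be told at this depth.

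KHSRP and HNRNPM had the higher values in shSTAU1. KHSRP (ENSG00000088247, minus strand, chr19:6413348-6424794), a KH-domain protein that binds AU-rich and G-rich RNA and acts in splicing, mRNA decay and miRNA maturation, had 145 and 179 CPM in Ctrl and 243 and 307 CPM in shSTAU1. The groups were well apart, although the libraries within each group also differed, by 0.31 and 0.34 on the log2 scale. The log2 fold change was 0.76 (SE 0.17, 95% interval 0.37 to 1.15), as large in size as that of QKI but with a wider interval, and the adjusted p of 0.0581 in the edgeR test lay just outside the threshold. It was inside with DESeq2 (adjusted p = 0.00158) and when either shSTAU1 library was left out, with a log2 fold change of 0.93 without replicate 1 and 0.57 without replicate 2. Without a Ctrl library it was 0.61 (replicate 1 left out) and 0.93 (replicate 2 left out) and stayed outside the threshold.

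HNRNPM (ENSG00000099783, plus strand, chr19:8444767-8489114), an hnRNP protein that competes with ESRP1 at GU-rich sites and favors mesenchymal exon choices, had 228 and 278 CPM in Ctrl and 300.0 and 408 CPM in shSTAU1. Both shSTAU1 libraries were above both Ctrl libraries, with a narrow gap between the higher Ctrl and the lower shSTAU1 library. The log2 fold change was 0.49 (SE 0.18, 95% interval 0.07 to 0.90, adjusted p = 0.151 by the edgeR test). Without shSTAU1 replicate 1 it was 0.70 (adjusted p = 5.75e-05) and without shSTAU1 replicate 2 it was 0.24 (adjusted p = 0.319, both by the edgeR test), so the size rests on which library is used.

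HNRNPL (ENSG00000104824, minus strand, chr19:38836388-38852347), an hnRNP protein that binds CA-rich RNA, is listed at 0 in all 4 libraries. So are DDX39B, a helicase used in mRNA splicing and export in every cell, and SCRIB, a polarity gene with an ESRP-regulated exon, while YTHDC1, the nuclear reader of m6A, has 2 counts in 1 library and 0 in the others. In all, 25.0% of the 19916 protein-coding genes in GENCODE 29 were at 0. A value of 0 in this table is therefore given only as it is listed, and the reason was not tested. HNRNPL shares 8.2% of its exonic bases with AC008982.1 on the same strand, which is at 0 as well. Its close relative HNRNPLL was measured, with 51.6 and 48.3 CPM in Ctrl and 65.6 and 67.9 CPM in shSTAU1 (log2 fold change 0.42, SE 0.13, adjusted p = 0.114 by the edgeR test); it was named for its relation to HNRNPL after its values were seen.

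**Figure D2:**
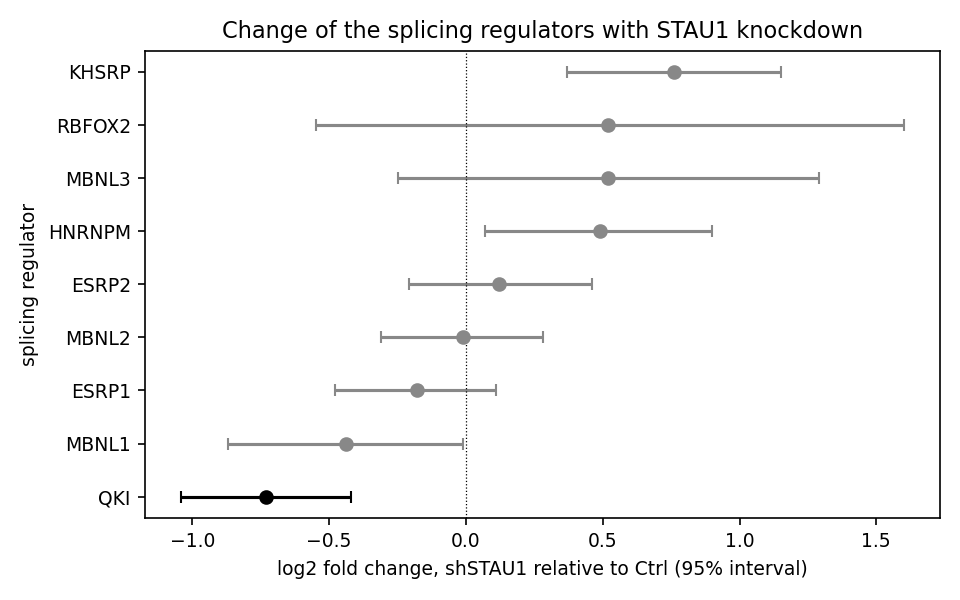
Log2 fold change of each tested splicing regulator, shSTAU1 relative to Ctrl, from edgeR's quasi-likelihood fit; points are estimates, bars are 95% intervals, and black marks an adjusted p under 0.05. QKI (-0.73) and MBNL1 (-0.44) have intervals under 0, KHSRP (0.76) and HNRNPM (0.49) above 0, and the intervals of the other 5 include 0.

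The levels of the regulators in Ctrl were compared per kb of the union of their exons. HNRNPM was highest, at 45.0 ± 6.32 CPM per kb (SD, n = 2, as for the values that follow), then ESRP1 at 36.4 ± 1.94, KHSRP at 35.5 ± 5.36 and MBNL2 at 30.4 ± 1.29. ESRP2 at 11.7 ± 0.362, MBNL1 at 9.71 ± 1.00 and QKI at 4.89 ± 0.042 followed. MBNL3 at 0.167 ± 0.0294 and RBFOX2 at 0.0781 ± 0.0113 were the lowest of those with counts. Among these neighbours, the libraries of ESRP1 and KHSRP overlapped and those of the others did not. The step from QKI down to MBNL3 was the widest, at 29.3-fold. The order depends on the length that is used. The libraries were made with an exome kit, which enriches coding sequence. Per kb of coding exons MBNL2 came first at 118 ± 4.98 CPM per kb, before HNRNPM at 110 ± 15.5. The libraries of MBNL2 and HNRNPM overlapped. QKI, with 17368 exonic bases of which 1157 are coding, then stood at 73.4 ± 0.631, next to MBNL1 at 76.2 ± 7.87 and KHSRP at 68.2 ± 10.3. The libraries of QKI lay within the range of both of these.

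**Figure D3:**
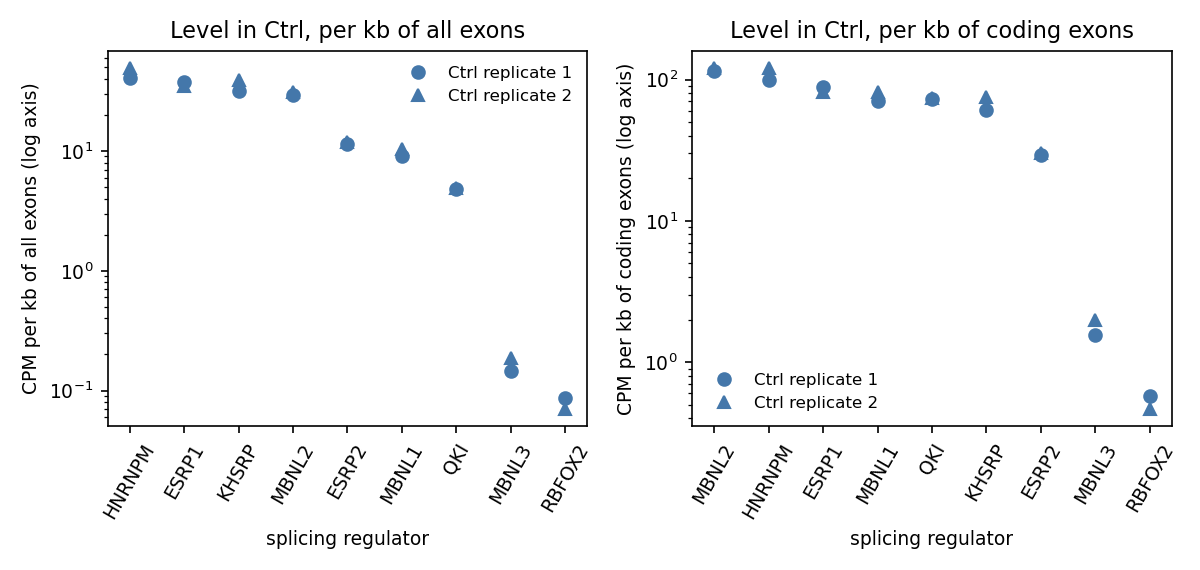
Level of the splicing regulators in the 2 Ctrl libraries as CPM per kb (log axes), by the length of all exons (left) and of coding exons (right); each point is 1 library. QKI is at 4.89 CPM per kb of all exons, under MBNL1, and at 73.4 CPM per kb of coding exons, level with MBNL1, while MBNL3 and RBFOX2 are lowest on both.

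Genes around these regulators were taken from 7 lists of 79 genes. Of these, 67 were tested and 8 were past the threshold, 2 higher and 6 lower in shSTAU1, beside the 2.6% of all genes. Among 10 relatives of the regulators (KH-domain, RBFOX and hnRNP family members), 6 were tested and none passed edgeR's test, with 3 at an unadjusted p under 0.05, beside 24.5% of all genes. DESeq2, which called 10.1% of all genes, called 1, KHDRBS1, a STAR protein like QKI, with 99.0 and 91.0 CPM in Ctrl and 135 and 144 CPM in shSTAU1. The edgeR test called 2 relatives without shSTAU1 replicate 1 and 1 without shSTAU1 replicate 2, in fits that called 18.5% and 14.5% of all genes. The most abundant was FUBP1, a relative of KHSRP, with 283 and 299 CPM in Ctrl and 234 and 236 CPM in shSTAU1 (log2 fold change -0.31, SE 0.12). Among 16 other exon regulators, 13 were tested and 1 passed. At an unadjusted p under 0.05 there were 6 (24.5% of all genes), and DESeq2 called 2 (10.1% of all genes). HNRNPF, which binds G-rich RNA, rose from 144 and 158 CPM to 250 and 262 CPM (log2 fold change 0.76, SE 0.12, adjusted p = 0.0358 by the edgeR test). This call was lost with no filter on low counts (adjusted p = 0.0989) and without either Ctrl library (0.49 without replicate 1, 0.159 without replicate 2).

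Of 13 factors known from circular RNA formation or turnover, such as ADAR and DHX9, 11 were tested. None was past the threshold in the edgeR test, with 3 at an unadjusted p under 0.05 (24.5% of all genes), and their log2 fold changes lay between -0.30 and 0.58. DESeq2 called 1 of them, ILF2, a double-stranded RNA-binding factor (238 and 271 CPM in Ctrl, 320 and 441 CPM in shSTAU1), which was named after its values were seen, as was KHDRBS1. With a library left out, the number of these factors called by the edgeR test varied with the library, as did the number over all genes. Such fits hold 1 library in a group, so nothing is read from their calls among the factors.

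Of 13 genes whose exons are spliced differently in epithelial and mesenchymal cells, 12 were tested and 2 fell, beside 1.48% of all genes. At an unadjusted p under 0.05 there were 5 (24.5% of all genes), and DESeq2 called 4 (10.1% of all genes), among them MACF1, which was lower, and RALGPS2, which was higher, both named after their values were seen. These values are sums over the gene and do not bear on exon use. OSBPL3, a lipid-binding protein and the gene of the 2 that is described here, fell from 155 and 149 CPM to 80.9 and 83.8 CPM (log2 fold change -0.88, SE 0.12, adjusted p = 0.0325 by the edgeR test). Each shSTAU1 library was far under each Ctrl library. Its call was kept after the length and GC correction, which left no other in this list, but was lost with no filter on low counts (adjusted p = 0.0945) and without either Ctrl library (0.49 without replicate 1, 0.114 without replicate 2).

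Some markers of cell state moved with QKI. Of 7 mesenchymal markers, 6 were tested, and all 6 had a log2 fold change under 0. Of these, 4 fell past the threshold, beside 1.48% of all genes. This list, like the others, was chosen with earlier results of these data known. VIM, an intermediate filament protein, went from 45.9 and 46.9 CPM to 11.7 and 22.5 CPM (log2 fold change -1.44, SE 0.28, adjusted p = 0.0467). CDH2, N-cadherin, went from 124 and 110 CPM to 53.4 and 68.8 CPM (-0.94, SE 0.16, adjusted p = 0.036). All 4 genes that fell had both shSTAU1 libraries under both Ctrl libraries, a separation of the groups that 56.6% of all genes had in one direction or the other. SPARC, a matrix protein, went from 203 and 241 CPM to 135 and 114 CPM (-0.83, SE 0.15, adjusted p = 0.037). COL1A1, a fibrillar collagen, went from 15.7 and 20.2 CPM to 7.84 and 6.25 CPM (-1.35, SE 0.23, adjusted p = 0.036, all by edgeR's quasi-likelihood test). FN1, fibronectin and the most abundant of the list, had 16188.1 and 20138.7 CPM in Ctrl and 15343.3 and 14017 CPM in shSTAU1 and was not past the threshold (adjusted p = 0.225). PDGFRB, named after its values were seen, was close to the limit of the counts. It had 15 and 22 counts in Ctrl and 23 and 7 counts in shSTAU1, so the groups overlapped (log2 fold change -0.38, SE 0.71). COL3A1 had 1 count in all. The summed level of the list was 16577.5 and 20557.5 CPM in Ctrl and 15552.1 and 14228.5 CPM in shSTAU1, nearly all of it FN1. The 4 calls were lost when either Ctrl library was left out and with no filter on low counts.

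Of 10 epithelial markers, all were tested and 1 rose, beside 1.13% of all genes. The values of 7 were higher in shSTAU1 and those of 3, CDH1, KRT8 and KRT18, were lower. DESeq2 called 2, KRT5 and KRT14, of which KRT14 was named after its values were seen. CDH1, E-cadherin, had 878 and 709 CPM in Ctrl and 826 and 474 CPM in shSTAU1. Its groups overlapped (log2 fold change -0.29, SE 0.25). CDH1 and KRT18 were also named after their values were seen. KRT5, a basal keratin, went from 3236 and 3386.9 CPM to 5487.6 and 4893.3 CPM (log2 fold change 0.65, SE 0.12, adjusted p = 0.0408 by the edgeR test). The call was lost with scaling by library size alone (log2 fold change 0.60, adjusted p = 0.0523), with no filter on low counts (adjusted p = 0.0989) and without either Ctrl library (0.49 without replicate 1, 0.201 without replicate 2). KRT8, the most abundant marker, had 5534.2 and 4994.5 CPM in Ctrl and 5017.6 and 4690.9 CPM in shSTAU1, with overlapping groups. KRT5 and KRT8 were thus abundant in all 4 libraries, while KRT6A, in the same list, lay between 74.3 and 93.7 CPM. The summed level was 16422 and 14777.9 CPM in Ctrl and 19223.3 and 15890.1 CPM in shSTAU1, so the groups overlapped. Of 10 transcription factors of the epithelial to mesenchymal transition, 9 were tested. None was past the threshold in the edgeR test or at an unadjusted p under 0.05, and DESeq2 called none either. Without shSTAU1 replicate 1 the edgeR test called ZEB2, and without shSTAU1 replicate 2 it called ELF3 and OVOL1, all 3 named after their values were seen, in the fits that called 18.5% and 14.5% of all genes. GRHL2, an epithelial factor and the most abundant, had 329 and 427 CPM in Ctrl and 346 and 383 CPM in shSTAU1. The part of the marker genes in the lower value of QKI was not tested. Fewer cells of a kind and less RNA per cell cannot be told apart in these bulk libraries.

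**Figure D4:**
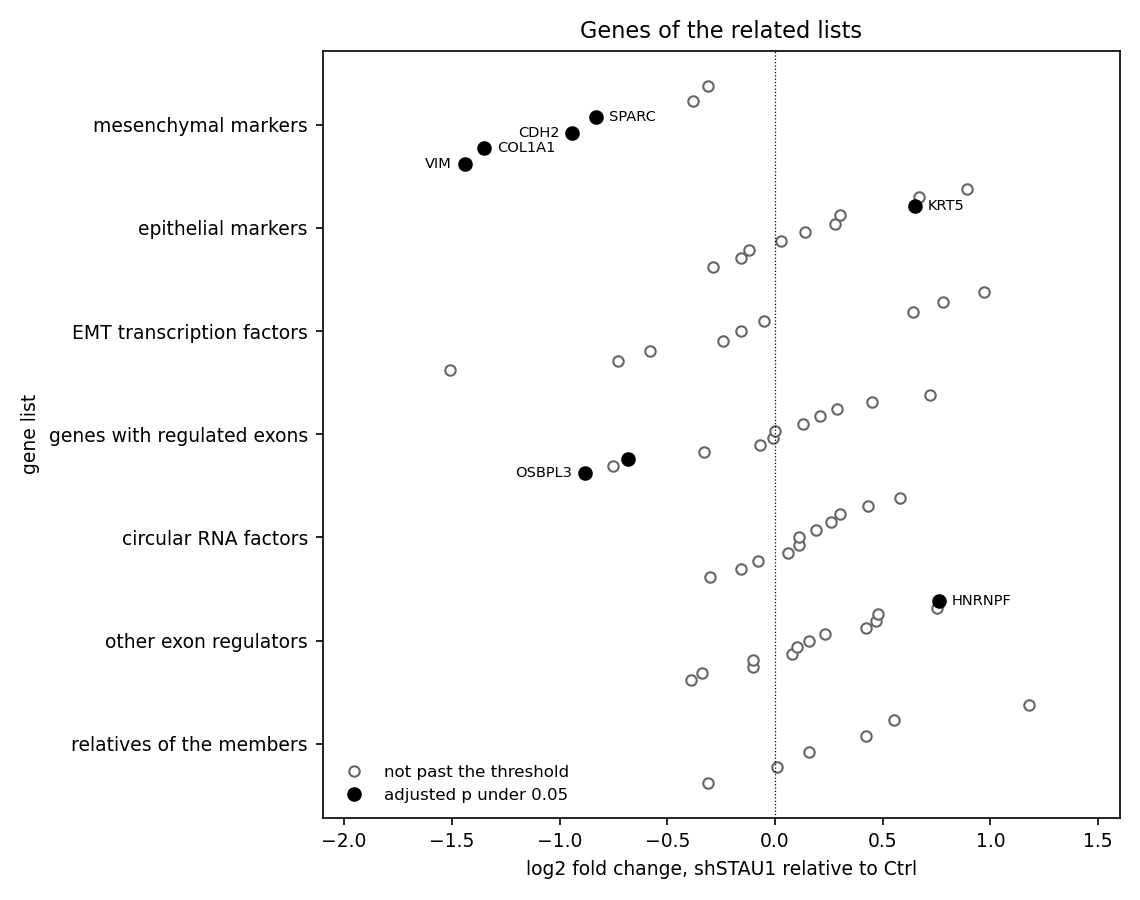
Log2 fold change (shSTAU1 relative to Ctrl, edgeR) of the 67 tested genes of the 7 lists; each circle is a gene, spread vertically within its list by rank, and black marks an adjusted p under 0.05. Of the 8 genes past the threshold 7 are named, and 4 of the 6 that fell are mesenchymal markers. The lists were chosen with earlier results of these data known, so nothing is read from these counts.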

How the data were processed

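RNA libraries were prepared from total RNA with an exome capture kit. The authors deposited a table of raw, whole-number counts for each gene, not normalized. The submitters' processing notes name Partek and hg38; the aligner, the counting rule, the strand setting and the annotation release are not given in the sources used here. All 4 sample columns were used. Of 67008 genes, 58516 are in GENCODE 29 (GRCh38), with 99.9% of the counts; positions, lengths and 3′ untranslated regions come from it. The 45 rows for the Y copies of pseudoautosomal genes hold 0 counts.

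Genes were filtered with filterByExpr (14303 kept, 99.9% of counts), scaled by TMM and compared by the quasi-likelihood test of edgeR 4.0.16 in R 4.3.3, two-sided, with Benjamini-Hochberg adjustment over all genes tested and a threshold of 0.05. The biological coefficient of variation was 19.1%. An exact permutation test of 2 against 2 libraries cannot give a p under 0.333. Replicates differed by more than counting noise (chi-square per degree of freedom 23.4 in Ctrl, 56.4 in shSTAU1), so none was merged. SDs are over CPM.

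The regulators and the 7 lists were chosen with earlier results of these data known. Named genes are STAU1 and STAU2, the regulators and their overlapping genes, the genes of each list past the threshold or else its most abundant, and the 5 profiles nearest to QKI (pseudocount 0.5 CPM). Of the genes this rule covers, 3 are not reported here. KRT8, FN1, COL3A1 and the genes at 0 were added beside them. Also named outside the rule were ADAR, DHX9, YTHDC1, HNRNPLL, KRT6A, CDH1, KRT18 and PDGFRB. KHDRBS1, ILF2, MACF1, RALGPS2, KRT14, ZEB2, ELF3 and OVOL1 were named for a call under an alternative. Alternatives were DESeq2 1.42.0, library size alone, no filter, limma-voom (3.58.1), the replicate number as a block, a length and GC correction (mgcv 1.9.3, 99% of tested genes), other thresholds and leaving out each library. The fits were tested on simulated data. Sequences were searched in Python 3.11.15, and genes of similar length have 0.5 to 2 times the length.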

Additional observations from a re-analysis of the deposited data

How the results depend on the processing

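With 2 libraries a group and 1 shRNA, the calls rest on a spread shared across genes, and a fit that leaves out a library assumes that the lone sample varies like the other group. STAU1 and QKI kept their direction under every alternative run. QKI was not past the threshold with no filter on low counts (log2 fold change -0.74, adjusted p = 0.0991, with 24804 genes tested) or after the length and GC correction (-0.59, adjusted p = 0.0602). Leaving out each library gave -0.79 to -0.68 for QKI, with an adjusted p of 0.49 without Ctrl replicate 1 and 0.216 without Ctrl replicate 2, and -2.60 to -2.58 for STAU1, which also missed the threshold without Ctrl replicate 1 (adjusted p = 0.49). MBNL2 changed sign, to 0.06 after the length and GC correction with and without the replicate block, and lay between -0.07 and 0.04 when a library was left out. The cause of these shifts was not tested.

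Against 372 genes, 1 of the regulators and 8 list genes past the threshold, DESeq2 called 1449, 2 and 14 (KHSRP was the regulator added). No filter left 11 genes, 0 regulators and 0 list genes. The length and GC correction left 0 regulators. An adjusted p under 0.1 gave 1585 genes and 2 regulators, and an unadjusted p under 0.05 together with a change of at least 1.5-fold gave 2099 and 2. Leaving out a library gave 0 to 2780 genes, 0 to 3 regulators and 0 to 22 list genes. The 0 came without Ctrl replicate 1, where edgeR found 1502 genes at an unadjusted p under 0.05, and without Ctrl replicate 2 there were 64 genes. The genes past the threshold numbered 2780 without shSTAU1 replicate 1 and 2203 without shSTAU1 replicate 2.

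With a replicate block in the model, 4087 genes, 4 regulators (QKI, MBNL1, KHSRP and HNRNPM) and 30 list genes passed, and 3781, 4 and 27 with the length and GC correction added. Samples of the same number deviated together (r = 0.27 across genes), but nothing in the labels says that a number marks a batch, and 2 pairs do not show a pairing.

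By coding length, 7 of the regulators changed place in the order of levels, and leaving out a Ctrl library moved 0 to 2. Among 176 other values under alternatives, 135 kept direction and side of the threshold, 26 lost a call, 11 gained one and 4 changed sign, all 4 of them values of MBNL2.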
